A study of Mus musculus with 21 samples.

Results

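The OAS family of the mouse was followed as 8 genes, Oas1a, Oas1b, Oas1c, Oas1g, Oas2, Oas3, Oasl1 and Oasl2, which were taken by symbol from the 24391 genes counted in each library. All 8 were found. The libraries came from newborn C57BL/6 mice (postnatal day 0; C57BL/6J in the study's methods), whose brain, liver and skin RNA had been sequenced, with 2 Jak1 KI +/- mice and 5 WT mice for each tissue and 21 libraries in all. The KI mice were heterozygous for a change of 1 histidine codon of Jak1 to aspartic acid and for silent changes of the codons beside it, and they descended from a single mosaic KI male. No mice carrying the silent changes alone were among these libraries, so the missense change and the silent changes cannot be told apart here. Libraries are named by genotype and mouse number (KI 1, WT 4). The libraries held 26549326 to 38388133 counts on genes, and each member passed the filter on low counts in each tissue.

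The OAS enzymes sense double-stranded RNA and, once bound to it, join ATP into short 2′-5′-linked chains of adenylate (2-5A), a signal that leads to the breakdown of RNA in the infected cell. Their genes are classical interferon-stimulated genes: interferon receptors signal through JAK1 and its partner kinases to transcription factors that bind an element called the ISRE in the promoters of such genes. Oas1a, Oas1g, Oas2 and Oas3 encode active synthetases, with Oas2 and Oas3 built from repeated OAS units, whereas Oas1b and Oas1c encode proteins without synthetase activity. Oasl1 and Oasl2 carry ubiquitin-like domains behind the OAS unit; OASL1 is inactive as a synthetase and is known as a brake on the translation of IRF7, and OASL2 is active.

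All members lie on chromosome 5 (NCBIM37, mm9) in 2 groups. Oasl2 (115346943 to 115362243, plus strand) and Oasl1 (115373249 to 115387924, plus strand) stand side by side. The other 6 follow within 177195 bases, in the order Oas2 (121180342 to 121199862, minus strand), Oas3 (121203107 to 121227670, minus), Oas1c (121250102 to 121262523, minus), Oas1b (121262644 to 121274186, plus), Oas1g (121326151 to 121337622, minus) and Oas1a (121346265 to 121357536, minus). Oas1c and Oas1b point away from each other, with 120 bases between their annotated starts. The longest annotated coding sequence was 1116 bases for Oas1a and for Oas1g, 1089 for Oas1c, 756 for Oas1b, 2256 for Oas2, 3417 for Oas3, 1590 for Oasl1 and 1527 for Oasl2.

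The Oas1 genes are close copies, which bears on how well reads can be assigned to each. The coding starts below show this (bases 1 to 60 of each coding sequence, 5′ to 3′, NCBIM37 transcripts), with capitals where a gene differs from Oas1a.
Oas1a: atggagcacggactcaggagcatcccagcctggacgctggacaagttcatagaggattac
Oas1g: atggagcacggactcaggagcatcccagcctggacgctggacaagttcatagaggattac
Oas1b: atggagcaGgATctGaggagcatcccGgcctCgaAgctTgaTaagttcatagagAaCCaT
Oas1c: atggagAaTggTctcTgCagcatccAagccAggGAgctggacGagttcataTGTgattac
Oas1g had no difference from Oas1a over this stretch, and Oas1b and Oas1c had 13 each. Over the aligned coding bases, gaps left out, Oas1a was 95.1% identical to Oas1g (1116 bases), 81.5% to Oas1b (756) and 76.2% to Oas1c (1086). Of the 75-base windows in the annotated transcripts, 863 occurred in both Oas1a and Oas1g, which is 41.7% of the windows of Oas1a and 39.4% of those of Oas1g. For Oas1c 1.30% of windows occurred in another Oas1 gene, and for the other 5 members none did. Reads that matched more than 1 place were tallied apart and made up 17.1% to 25.4% of all reads tallied per library, so the levels of Oas1a and Oas1g are uncertain. Oasl1 shares exon bases with the non-coding gene Gm13822 on the other strand, and the library kit does not mark strand.

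The coding sequence of Oas1b ends early in this reference, which is the C57BL/6 genome and thus the strain of these mice. The last 33 bases of the Oas1b coding sequence (bases 724 to 756) are printed with the stretch of Oas1a that aligns to them (bases 754 to 786), and capitals mark the stop, codon 252 of Oas1b, and the Oas1a codon aligned to it.
Oas1b: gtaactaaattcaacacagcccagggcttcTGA
Oas1a: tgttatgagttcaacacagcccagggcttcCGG
The Oas1a reading frame goes on past this point to 372 codons, stop included.

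Promoter windows from 250 bases before to 50 after the annotated start were given by RefSeq (GRCm38.p6) for 6 of the 8 members, Oas1a, Oas1c, Oas1g, Oas3, Oasl1 and Oasl2. The core of the ISRE, spelled GAAANNGAAA and searched on both strands, occurred in 4 of these 6 windows, against 3.44% of all 32851 windows of the same length. The 4 are not independent cases, because Oas1a and Oas1g are near-copies there and Oas1c holds the same matched letters in reverse. The stretches that hold it are printed 5′ to 3′ on the gene's strand, because they show what the letters shared by these members are, with the matches in capitals (all on the minus strand of chromosome 5).
Oas1a, chr5:120907526-120907585, bases -60 to -1 from the start: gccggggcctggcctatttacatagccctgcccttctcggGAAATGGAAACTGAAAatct
Oas1g, chr5:120887614-120887673, bases -60 to -1: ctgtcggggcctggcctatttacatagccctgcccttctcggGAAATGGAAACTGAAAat
Oas1c, chr5:120812593-120812632, bases -118 to -79: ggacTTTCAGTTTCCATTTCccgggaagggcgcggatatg
Oas3, chr5:120777710-120777769, bases -110 to -51: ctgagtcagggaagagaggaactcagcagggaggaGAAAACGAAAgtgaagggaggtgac
Oas1a, Oas1g and Oas1c each held 2 matches that overlap by 4 bases, which read on the gene's own strand in Oas1a and Oas1g and on the opposite strand in Oas1c. The Oas1c window also holds the Oas1b coding start, in reverse. The matches in it lie between that coding start and the Oas1c start, and read on the strand of Oas1b, which had no window of its own. Oas3 held 1. The letters did not occur in the windows of Oasl1 and Oasl2. The GAS element, spelled TTCNNNGAA and known from interferon-gamma responses, occurred in the window of Oas1a alone, against 8.30% of all windows. These are matches of letters within a window, and binding was not measured.

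To describe the baseline, levels in the WT mice were put on 1 scale over the 3 tissues and divided by exon length (CPM, counts scaled to the library size, per kb). The mean of each member was lowest in the brain and highest in the liver. In the liver Oasl2 stood at 9.95 ± 2.76 CPM per kb (SD, n = 5), Oas3 at 8.35 ± 0.958, Oas2 at 5.44 ± 0.931, Oas1a at 4.64 ± 0.594, Oasl1 at 4.40 ± 1.72, Oas1b at 4.06 ± 0.687, Oas1g at 1.72 ± 0.215 and Oas1c at 0.749 ± 0.202. Neighbours in this order overlapped between mice, apart from the steps from Oas3 to Oas2, from Oas1b to Oas1g and from Oas1g to Oas1c.

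In the WT skin Oasl2 was again highest, at 5.34 ± 1.86 CPM per kb (SD, n = 5), and no mouse had another member above the lowest Oasl2 value. Oas2 at 1.70 ± 0.353, Oas1a at 1.36 ± 0.180, Oas1b at 1.33 ± 0.400 and Oasl1 at 1.31 ± 0.188 overlapped one another in turn. Oas1g at 0.465 ± 0.139, Oas1c at 0.440 ± 0.137 and Oas3 at 0.374 ± 0.191 formed a lower, overlapping step. Oas3, the longest synthetase of the family, thus went from the second place in the liver to the last in the skin. The paper gives a lower average RNA integrity for the skin samples than for the liver samples. The part of RNA quality in these levels was not tested.

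In the WT brain Oasl2 stood at 0.963 ± 0.366 CPM per kb (SD, n = 5), above every value of the others. The remaining 7 members lay between 0.0666 ± 0.0521 for Oasl1 and 0.289 ± 0.115 for Oas1c, and each overlapped the next. Their counts were small, from 1 to 88 reads per WT library, which limits what can be said of them.

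**Figure D1:**
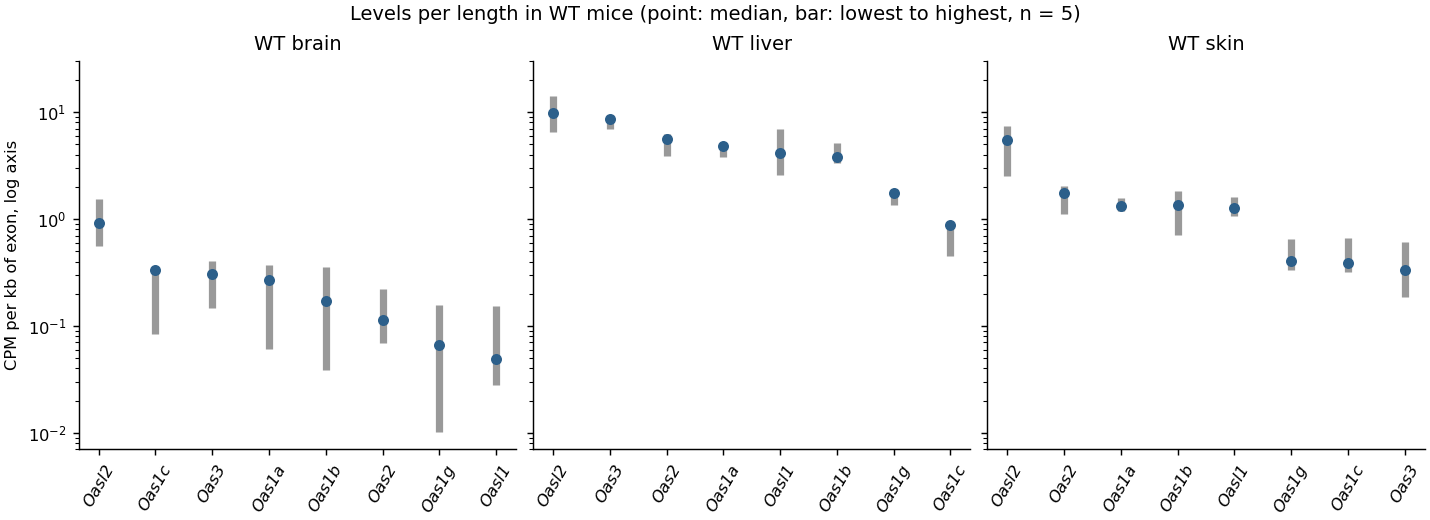
Levels of the 8 members in WT brain, liver and skin, in CPM per kb of exon on a log axis, each panel ordered from the highest to the lowest mean. Points are medians and bars run from the lowest to the highest of 5 mice; Oasl2 leads in each tissue, and Oas3 is second in the liver and last in the skin.

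Tissue pairs were compared by edgeR's quasi-likelihood test, with p-values adjusted by Benjamini-Hochberg over all 17071 genes and a call at an adjusted p under 0.1. All 8 members were higher in the WT liver than in the WT brain, where 40.2% of all genes were called higher. The difference was largest for Oasl1, with a log2 fold change of 6.02 ± 0.448 (SE, adjusted p = 3.20e-09), and smallest for Oas1c, at 1.37 ± 0.369 (adjusted p = 0.00286). For Oas2 it was 5.43, for Oas3 4.94, for Oas1g 4.40, for Oas1a 4.34, for Oas1b 4.27 and for Oasl2 3.37. The 2 groups of mice did not overlap for any member, but the share of all genes without overlap was not computed.

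In the WT skin 6 members were higher than in the WT brain, where 40.3% of all genes were called higher. Their log2 fold changes ran from 2.47 for Oasl2 to 4.27 for Oasl1. The 2 members not called were Oas1c, at 0.60 ± 0.366 (SE, adjusted p = 0.145), and Oas3, at 0.45 ± 0.330 (adjusted p = 0.222), and their groups overlapped. Without WT 4, Oas3 was called, at 0.82 (adjusted p = 0.0408).

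All 8 members were lower in the WT skin than in the WT liver, where 32.5% of all genes were called lower. RNA integrity also differed between the skin and liver samples, as given above, and its part was not tested. The difference in Oas3 was the largest of the family, with a mean of 1.95 CPM in the skin and 43.7 CPM in the liver on the common scale and a log2 fold change of -4.48 ± 0.356 (SE, adjusted p = 1.61e-08). The other log2 fold changes ran from -1.89 for Oas1g to -0.77 for Oas1c. The call of Oas1c (adjusted p = 0.0722) was lost without WT 4 (adjusted p = 0.205) and without WT 5 (adjusted p = 0.209), and the groups overlapped for Oas1c and Oasl2.

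KI and WT mice were then compared within each tissue, to ask whether the family differed with the Jak1 genotype. Values from here on are CPM normalised within a tissue, given for KI 1 and KI 2 and then for WT 1 to WT 5. In the liver 5 members rose in the KI mice, namely Oas1a, Oas1g, Oas2, Oas3 and Oasl2, by between 1.90-fold and 2.26-fold. Calls over the whole liver table of 14966 genes came to 3.89% higher and 1.68% lower, and no member was called lower. At an unadjusted p under 0.05, 7 members were higher, against 9.49% of all genes, and DESeq2 called 7 members, against 10.2% of the genes it tested. For 7 of the 8 members both KI libraries lay above all 5 WT libraries, a pattern that 13.0% of all genes showed.

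Among the active synthetases, Oas1a stood at 13.4 and 15.1 CPM in the KI livers and at 6.18, 6.71, 7.51, 5.31 and 7.31 CPM in the WT livers. The lower KI value was above the highest WT value, and the log2 fold change was 1.11 ± 0.157 (SE, adjusted p = 0.00992). Its near-copy Oas1g stood at 5.42 and 7.82 CPM against 2.95, 3.11, 3.04, 2.29 and 3.25 CPM. The groups were again apart, with a log2 fold change of 1.18 ± 0.213 (SE, adjusted p = 0.0260).

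Oas2 stood at 31.2 and 36.0 CPM in the KI livers and at 17.9, 19.4, 19.2, 12.1 and 17.7 CPM in the WT livers. WT 4 was well below the other WT mice, and both KI mice were above the highest WT mouse. The log2 fold change was 0.96 ± 0.172 (SE, adjusted p = 0.0247). Oas3 stood at 56.0 and 79.8 CPM against 35.1, 31.2, 34.4, 25.3 and 29.7 CPM, with KI 2 the highest and WT 4 the lowest of the 7. Its log2 fold change was 1.13 ± 0.154 (SE, adjusted p = 0.00912).

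Of the members with ubiquitin-like domains, Oasl2 stood at 48.9 and 55.5 CPM in the KI livers and at 27.3, 38.2, 29.4, 24.5 and 18.1 CPM in the WT livers. The WT mice spread widely but stayed below both KI mice, and the log2 fold change was 0.92 ± 0.222 (SE, adjusted p = 0.0666). Oasl1 stood at 18.0 and 15.3 CPM against 4.88, 12.7, 6.14, 9.17 and 7.73 CPM. Its groups did not overlap either, but with the wide WT spread the log2 fold change of 1.03 ± 0.300 (SE, adjusted p = 0.112) was not called by edgeR. DESeq2 called Oasl1 (adjusted p = 0.0226).

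Oas1c and Oas1b were not called by edgeR either. Oas1c stood at 2.18 and 3.44 CPM in the KI livers and at 1.16, 1.58, 0.853, 1.60 and 1.65 CPM in the WT livers, without overlap. Its log2 fold change was 1.03 ± 0.328 (SE, adjusted p = 0.144), and DESeq2 called it (adjusted p = 0.0681). Oas1b stood at 5.39 and 5.46 CPM against 5.12, 5.38, 5.15, 4.43 and 6.89 CPM. Both KI libraries lay inside the WT range, and the log2 fold change was 0.0071 ± 0.196 (SE, adjusted p = 0.989). Oas1b was the only member in the liver whose groups overlapped. The difference between Oas1b and the other members was not tested.

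Leaving out 1 KI mouse moved the liver calls. Without KI 1, Oas1a, Oas1g, Oas2 and Oas3 stayed called (adjusted p = 0.0176 to 0.0976) and Oasl2 did not (0.212). Without KI 2 none of the 8 members was called, with adjusted p of 0.145 to 0.391 for the 5 called above, although their log2 fold changes stayed between 0.83 and 1.02. One fit of all 21 libraries, which shares a single estimate of the spread, also called none of them (adjusted p = 0.196 to 0.358).

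**Figure D2:**
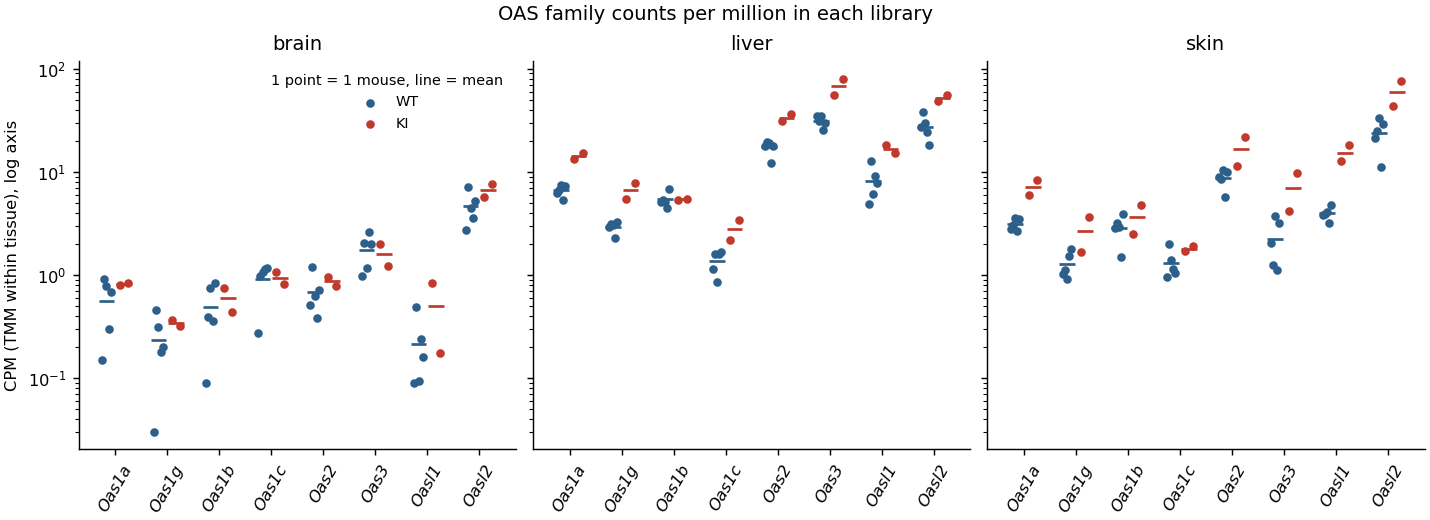
CPM of the 8 members in each library, normalised within a tissue, on a log axis with 1 point per mouse and a line at the group mean (2 KI and 5 WT mice per tissue). In the liver both KI points lie above all WT points for each member except Oas1b, in the skin for 5 members, and in the brain for none.

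In the skin the family was higher on average in the KI mice, but edgeR called only Oasl1. Calls of higher genes over the whole skin table of 16163 genes came to 0.0247%. At an unadjusted p under 0.05, 6 members were higher, against 2.89% of all genes. DESeq2 called 3 members, Oasl1, Oas1a (adjusted p = 0.00951) and Oasl2 (0.0984), against 0.707% of the genes it tested. Both KI libraries lay above all WT libraries for 5 members, Oas1a, Oas2, Oas3, Oasl1 and Oasl2, a pattern that 4.91% of all genes showed. All 8 log2 fold changes were above 0, against 43.3% of all genes.

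Oasl1 stood at 12.7 and 18.1 CPM in the KI skins and at 3.85, 3.88, 4.08, 3.18 and 4.76 CPM in the WT skins. The WT mice were close together and both KI mice were far above them, and the log2 fold change was 1.96 ± 0.219 (SE, adjusted p = 0.0899). This call did not survive the loss of any 1 mouse: the adjusted p then ran from 0.156 without WT 4 to 0.999 without KI 2, with log2 fold changes of 1.68 to 2.24.

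None of the other members was called by edgeR in the skin, whose adjusted p are given here. Oas1a stood at 5.96 and 8.27 CPM in the KI skins and at 2.78, 3.08, 3.60, 2.68 and 3.49 CPM in the WT skins, with a log2 fold change of 1.19 ± 0.242 (SE, adjusted p = 0.554). Oasl2 stood at 43.4 and 75.3 CPM against 21.4, 24.9, 33.1, 11.2 and 29.0 CPM, at 1.31 ± 0.370 (SE, adjusted p = 0.765). For both genes KI 2 was the highest mouse and WT 4 the lowest.

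Oas3 had the largest log2 fold change after Oasl1, 1.62 ± 0.528 (SE, adjusted p = 0.936), with 4.19 and 9.71 CPM in the KI skins and 2.02, 1.25, 3.69, 1.12 and 3.17 CPM in the WT skins. Oas2 stood at 11.5 and 21.6 CPM against 8.98, 8.59, 10.4, 5.72 and 9.97 CPM, at 0.92 ± 0.296 (SE, adjusted p = 0.934). In both genes KI 1 was just above the highest WT mouse and KI 2 far above it. Without KI 2 the log2 fold changes were 0.89 for Oas3, 0.39 for Oas2, 0.38 for Oas1g and 0.85 for Oasl2, each with an adjusted p of 0.999. For Oas1g, Oas1c and Oas1b the groups overlapped and the log2 fold changes were 1.06 ± 0.422, 0.46 ± 0.381 and 0.35 ± 0.409 (SE), each with an adjusted p of 0.999.

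In the brain edgeR called none of the 8 members, and none had an unadjusted p under 0.05, where 2.80% of all genes were higher at that p. DESeq2 also called none, against 4.28% of the genes it gave an adjusted p, but gave none for 6 of the members. Calls of higher genes over the whole brain table of 16322 genes came to 0%. The 2 KI libraries did not lie above all WT libraries for any member, against 11.2% of all genes. Of the log2 fold changes 7 of 8 were above 0, against 47.2% of all genes, and they ran from -0.12 ± 0.452 for Oas3 to 1.23 ± 0.790 for Oasl1 (SE).

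Oasl2, the member with the most counts in the brain, stood at 5.66 and 7.64 CPM in the KI brains and at 2.72, 7.17, 4.43, 3.57 and 5.19 CPM in the WT brains. WT 2 lay between the KI mice, and the log2 fold change was 0.53 ± 0.363 (SE, adjusted p = 0.661). Oasl1 stood at 0.837 and 0.174 CPM against 0.0908, 0.486, 0.0943, 0.238 and 0.160 CPM, so its change rested on KI 1 alone. WT 1 was the lowest brain library for 7 of the 8 members, with Oas1a at 0.151 CPM and Oas1g at 0.0303 CPM, the latter from 1 read.

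**Figure D3:**
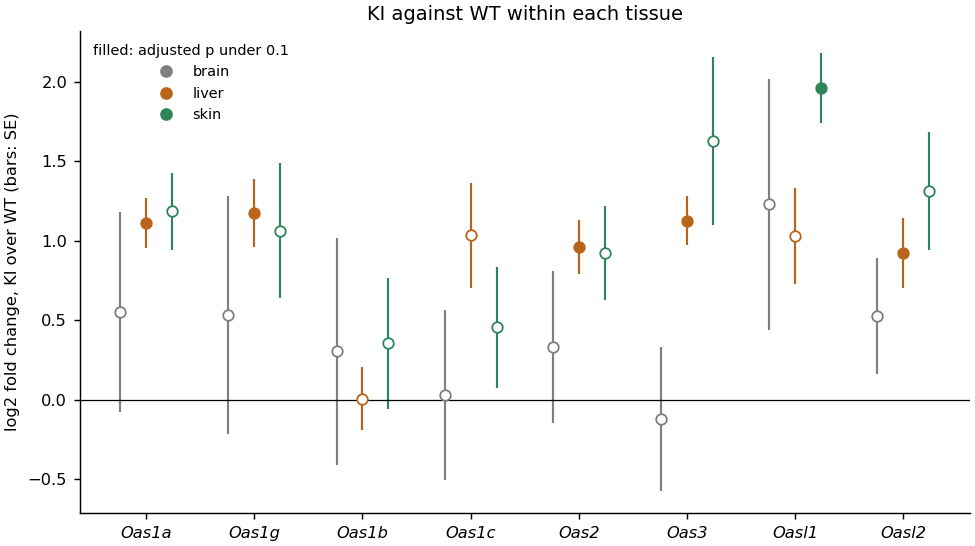
Log2 fold change of KI over WT for each member in the 3 tissues, with bars of 1 SE; filled points passed an adjusted p under 0.1. The 5 filled liver points lie between 0.92 and 1.18, Oasl1 in the skin at 1.96, and Oas1b in the liver at 0.

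The median log2 fold change over the 8 members was 0.43 in brain, 1.03 in liver and 1.12 in skin, while the median over all genes tested was -0.02, -0.02 and -0.03. Of the liver values 8 of 8 were above 0, against 46.8% of all genes. The difference of the KI effect from tissue to tissue was tested with interaction terms over all 21 libraries and 18062 genes, in a fit without a term for the mouse. No member was called by edgeR or by DESeq2 in any of the 3 pairs of tissues, where 2.81% of all genes were called in either direction for the liver against the brain, 0% for the skin against the brain and 0.0997% for the skin against the liver. By unadjusted p under 0.05, no member passed for the liver against the brain or the skin against the liver, and only Oas3 passed for the skin against the brain, with a difference in log2 fold change of 1.68 ± 0.629 (SE, adjusted p = 0.578). With the mouse as a block no member was called either, and this difference was 1.63 (adjusted p = 0.623). In the fit without the block the log2 fold change of Oas3 was -0.03 for brain, 1.11 for liver and 1.65 for skin. An effect confined to the liver and the skin is therefore not shown by these data.

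How the members moved together from mouse to mouse was described over the 21 libraries, after the WT mean of each tissue had been taken away from the log2 CPM. The points share mice across tissues and include the KI mice, so the values are given without a test. Oas1a followed the mean of the other 7 members most closely (Pearson r = 0.904), then Oasl2 (0.856), Oas2 (0.845), Oas1g (0.841), Oasl1 (0.752), Oas3 (0.750) and Oas1c (0.670). Oas1b followed it least (0.556).

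Libraries with the same mouse number stood at the ends of the family in the skin and the liver, but not in the brain. The labels do not state that a number is the same mouse in each tissue. KI 2 was the highest library for 7 of 8 members in the skin and for 6 of 8 in the liver. WT 4 was the lowest for 6 members in the skin and for 5 in the liver. In the brain KI 2 was the highest and WT 4 the lowest for 1 member each. Of 13652 genes tested in all 3 tissues, those whose pattern was most like the mean of the 8 members were Irf7 (r = 0.911), which encodes the transcription factor that amplifies type I interferon, Unc93b1 (0.905), which carries nucleic-acid-sensing Toll-like receptors to the endosome, the interferon-stimulated genes Ifit3 (0.904) and Mndal (0.896), and Trim30a (0.885). The pick used the KI libraries, so a KI rise like that of the family is partly built into it. In the liver Irf7 rose 2.11-fold in the KI mice (log2 fold change 1.07 ± 0.122, SE, adjusted p = 0.00440), from 67.0 to 96.2 CPM in the WT livers to 180 and 170 CPM in the KI livers. It was not called in the skin (2.74-fold, adjusted p = 0.331) or the brain (1.88-fold, 0.372), though both KI libraries lay above all WT libraries in each. Unc93b1, Mndal and Trim30a were called in the liver, and Ifit3 was not (adjusted p = 0.111).

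Of the genes that act on the 2-5A pathway after the OAS enzymes, Abce1, a known inhibitor of it, and Pde12, a phosphodiesterase that degrades 2-5A, were not called in any tissue, and neither had an unadjusted p under 0.05. Pde12 stood at 16.7 and 17.3 CPM in the KI livers and at a median of 19.2 CPM in the WT livers (adjusted p = 0.791), and Abce1 at 87.8 and 89.6 CPM against 88.8 to 111 CPM (adjusted p = 0.428). Among the other Oas1 genes, Oas1e rose in the liver by 2.23 ± 0.537 on the log2 scale (SE, adjusted p = 0.0667), from few counts: 25 and 48 reads in the KI livers against 3 to 12 in the WT livers. With it, 1 of the 4 genes tested in the liver from this list of 7 was called, against 0 of 5 in the brain and 0 of 4 in the skin. Over all genes, 3.89% were called higher in the liver, 0% in the brain and 0.0247% in the skin. Oas1f, another Oas1 gene, did not follow the family: its skin values were 5.77 and 0.386 CPM in the KI mice and 0.599 to 6.22 CPM in the WT mice.

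The ligands that induce the family were barely seen. Of 11 interferon ligand genes, 7 had no count in any of the 21 libraries. These are alpha and lambda interferon genes, which have close copies, and since reads that match several places were tallied apart, their count of 0 sets no limit on their level. The other 4 had at most 11 counts in a library, for Ifnk. Of the receptor subunits, Ifngr2 rose in the liver (1.30-fold, adjusted p = 0.0403), while Ifnar1 (1.04-fold, adjusted p = 0.724) and Ifnar2 (1.23-fold, adjusted p = 0.152) were not called. Jak1 itself, whose edit changes a codon and need not change its level, was at 196 and 208 CPM in the KI livers and 147 to 173 CPM in the WT livers and was not called in the liver (adjusted p = 0.125), the brain (0.719) or the skin (0.999).

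Stat2 and Irf9, which encode transcription factors that act together at the ISRE, did not pass the test. In the liver Stat2 stood at 1.09-fold (adjusted p = 0.738) and Irf9 at 1.06-fold (0.696). In the skin Stat2 and Irf9 each stood at 1.37-fold with an adjusted p of 0.999. Of the 16 genes of interferon signalling tested in each tissue, edgeR called 3 in the liver, Ifngr2, Irf7 and the deubiquitinase-like regulator Usp18 (1.36-fold, adjusted p = 0.0850), and 0 in the brain and the skin. Of all genes it called 3.89% higher in the liver, 0% in the brain and 0.0247% in the skin. At an unadjusted p under 0.05 the counts were 8 in the liver, 1 in the brain and 3 in the skin (9.49%, 2.80% and 2.89% of all genes), and DESeq2 called 5, 0 and 1 (10.2%, 4.28% and 0.707%). The medians of the log2 fold changes were 0.30 in the liver, 0.18 in the brain and 0.29 in the skin.

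Other sensors and effectors of double-stranded RNA formed a list of 13 genes. In the liver 5 of them rose by edgeR: Zbp1 (3.14-fold, adjusted p = 0.00485), Ifit1 (2.19-fold, 0.00544), Mx1 (1.92-fold, 0.0971), Isg15 (1.89-fold, 0.0172) and Dhx58 (1.54-fold, 0.0695). Of all genes it called 3.89% higher there. Ifih1, Ddx58 and Tlr3, receptors of double-stranded RNA, Eif2ak2, the RNA-dependent kinase PKR, and Adar were among the 8 that did not pass. DESeq2 called 6 of the list in the liver, against 10.2% of the genes it tested. In the skin edgeR called 0 of 13, with 9 higher at an unadjusted p under 0.05, against 2.89% of all genes, and 7 called by DESeq2, against 0.707%. All 13 were above 0 in the skin with a median log2 fold change of 0.86, against 0.30 in the liver. In the brain 0 of 12 were called by either tool and 0 had an unadjusted p under 0.05.

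Cell markers moved with the genotype in the liver. Fewer or more cells of a type cannot be told apart from less or more RNA per cell in such bulk samples. Over all genes, edgeR called 3.89% higher in the liver. All 5 macrophage markers were called higher, and their summed level was 557 to 658 CPM in the KI livers against 361 to 465 CPM in the WT livers. The sum of the 8 OAS members was 180 and 218 CPM against 84.6 to 118 CPM. Of the B cell markers 3 of 4 were called higher (sums of 97.3 to 103 CPM against 54.5 to 76.3 CPM), of the neutrophil markers 2 of 4, S100a8 and S100a9 (4392 to 5250 CPM against 2671 to 3604 CPM), and of the 4 T and NK cell markers tested Klrb1c alone (2.18 and 2.50 CPM against 0.766 to 1.23 CPM). Irf8 was called among 4 genes chosen for plasmacytoid dendritic cells, of which Siglech, their defining marker, stood at 1.06 and 1.02 CPM against 0.451 to 1.70 CPM, and Bcl11a, which was not called, lay below all WT livers at 20.1 and 19.4 CPM (20.2 to 34.5 CPM in the WT livers, adjusted p = 0.218). Among the brain markers Tubb3 was called higher in the liver (3.80 and 2.90 CPM against 0.0578 to 0.587 CPM), with Snap25 and Neurod1 at 0 in both KI livers. Map2, the other brain marker tested there, lay below all WT livers, at 5.70 and 7.79 CPM against 8.32 CPM or more, and was called by DESeq2 but not by edgeR (adjusted p = 0.144). The part of these cells in the OAS result was not tested.

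In the skin the keratinocyte markers Krt5, Krt14, Krt1, Krt10 and Lor varied more between mice than the OAS genes did. Their sum was 13533 CPM in KI 1 and 850 CPM in KI 2, and 9189, 3702, 5478, 16497 and 1447 CPM in WT 1 to WT 5. KI 2 had the lowest sum of keratinocyte markers and the highest OAS sum (143 CPM), and WT 4 the highest and the lowest (28.1 CPM). KI 1 lay inside the WT range of these markers, and its OAS sum of 83.7 CPM was above that of each WT skin, which ran up to 60.1 CPM. A fit added after the values had been seen took the log2 of the marker sum as a covariate. In it Oasl1, the only member that edgeR called in the skin, had a log2 fold change of 1.86 (adjusted p = 0.0878). The 2 KI skins lie far apart on this covariate, so the fit cannot decide what part the markers have. The part of keratinocytes in the skin result was not tested. The macrophage markers summed to 357 to 466 CPM in the KI skins and 226 to 324 CPM in the WT skins. Of these 5 markers edgeR called 0, where it called 0.0247% of all genes higher. At an unadjusted p under 0.05, 4 were higher, against 2.89% of all genes. DESeq2 called 2, against 0.707% of the genes it tested. By the markers of each tissue, the libraries otherwise held the tissue on their label.

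**Figure D4:**
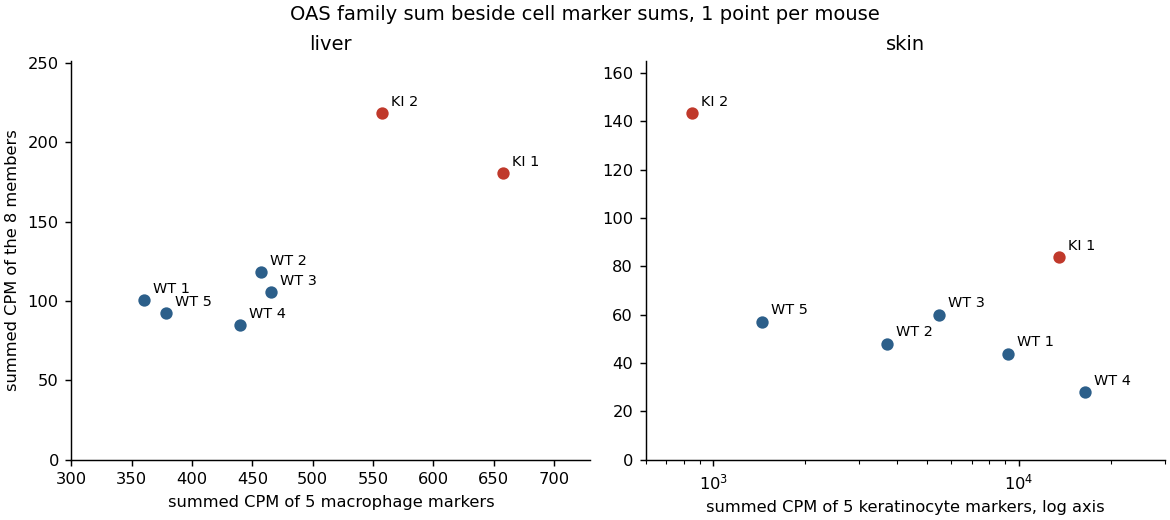
Summed CPM of the 8 OAS members (vertical axis) beside the summed CPM of 5 macrophage markers in the liver and of 5 keratinocyte markers in the skin (log axis), 1 labelled point per mouse. In the liver both KI mice are highest on both axes; in the skin KI 1 lies above the WT mice at a marker sum inside their range.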

How the data were processed

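Total RNA was purified with the RNeasy Mini Kit and sequenced as paired-end TruSeq v2 libraries, which do not mark strand. Per the paper's methods and the labels, the authors trimmed adapters, aligned to mm9 with TopHat2 and counted with HTSeq. The deposited values are raw counts per gene symbol, not normalised. The counting annotation and the strand setting are not given in the sources used here. The 5 summary lines of each library, 30.4% to 38.1% of all counts, were left out of library sizes and tests.

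KI and WT were compared within each tissue by the quasi-likelihood test of edgeR 4.0.16 (R 4.3.3) with filterByExpr and TMM, p-values adjusted over all genes by Benjamini-Hochberg and a call at an adjusted p under 0.1. WT tissues and interactions were fitted over the 15 WT and all 21 libraries. CPM came from TMM sizes, log2 CPM used a prior count of 2, and the SE was the log2 fold change over the square root of F. Whether libraries came from separate litters is not given, so p-values measure the spread between these mice. WT libraries with the same number were taken as the same mouse. The methods give 2 KI and 5 WT mice in all, the labels do not state the link, and the correlations of the deviations ran from -0.011 to 0.299 (means of 0.117 to 0.156).

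The members and all lists were chosen with earlier results of these data known. Named were the 8 members, Jak1, the other Oas1 genes, list genes that were called or are interferon genes, receptors, Stat2, Irf9 or 2-5A partners, and the 5 genes most like the family. The remaining Oas1 genes, and the listed genes neither named nor counted as called above, were not called by edgeR. Items withheld for evaluation are not reported here. Of the lists for endothelium and erythroid cells, 0 genes were called by edgeR or DESeq2 in any tissue. DESeq2 1.42.0, other filters and size factors, blocks and leaving out each mouse were tried, and the steps were tested on simulated data. Coding sequences came from GENCODE vM1 (NCBIM37), promoters from RefSeq, and alignment and figures from Biopython 1.88 and matplotlib 3.10.9 in Python 3.11.15.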

Additional observations from a re-analysis of the deposited data

Results flagged for a closer look

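Of the 24 sets of 5 WT libraries (8 members in 3 tissues), 2 had an end value apart from the rest by Dixon's test at the 95% level, and chance alone gives about 1 in 20. Oas1c in the brain of WT 1 stood at 0.272 CPM, with the next WT value at 0.973 CPM and the highest at 1.16 CPM. The count behind it was 9 reads. Oas2 in the liver of WT 4 stood at 12.1 CPM, with the next value at 17.7 CPM and the highest at 19.4 CPM. Without WT 1 the log2 fold change of Oas1c in the brain was -0.19 in place of 0.03, and it was called in neither fit.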

How the results depend on the processing

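In the liver 5 members were called higher. The count ran from 0 (without KI 2) to 6 when 1 mouse was left out, and was 0 in 1 fit of all 21 libraries and 7 by DESeq2 (with Oas1c and Oasl1). In the skin 1 member was called. The count was 0 at an adjusted p under 0.05, with no filter beyond 1 count in total, in the fit of all 21 libraries and with any 1 mouse left out, and 3 by DESeq2 (Oas1a, Oasl1, Oasl2). Under the pairing by replicate number (replicate block) it was also 0, with Oasl1 at 1.97 (adjusted p = 0.910). The numbers of KI and WT mice share only a label, with mean correlations of -0.01, -0.04 and 0.05 for brain, liver and skin over 2 pairs each, and neither this block nor the mouse as a block over the WT tissues changed the call of any other member. The causes were not tested.

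Over the alternatives in the liver and the skin, the 7 members other than Oas1b kept a log2 fold change above 0 in 175 of 175 values. Oas1b was set apart with its values known. These fits share most of their libraries, so the values are not independent of one another and give no added support. The share over all genes was not computed. Signs turned for values near 0. Brain Oas3 (-0.12) was 0.15 with the replicate block, and ran from -0.51 to 0.19 with 1 mouse left out. In the brain, leaving out 1 mouse gave Oas1b -0.12 to 0.64, Oas1c -0.19 to 0.21 and Oasl1 -0.27 to 1.95. Oas1b ran from -0.056 to 0.12 in the liver, where the fit of all 21 libraries gave -0.0082, and from -0.19 to 0.79 in the skin. With the longest transcript as length, Oasl1 passed Oas1a in the liver and took rank 3 in the skin. With 2 KI mice, the SE of the member log2 fold changes was 0.363 to 0.790 in the brain, which sets what these counts can show.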

Other observations

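Ratios between members within a library were looked at after the values had been seen, and carry no test. In the liver the log2 ratio of Oas1a to Oas1b was 1.30 and 1.46 in the KI mice and 0.08 to 0.54 in the WT mice, without overlap. The neighbours Oas1c and Oas1b, whose starts face away from each other, had a log2 ratio of -1.28 and -0.66 in the KI livers against -2.51 to -1.43 in the WT livers. For Oas1a over Oas1g, the near-copies, the KI livers at 1.30 and 0.94 lay across the WT range of 1.05 to 1.29. In the skin the ratio of Oas1a to Oas1b was 1.22 and 0.78 in the KI mice and -0.15 to 0.81 in the WT mice, and in the brain 0.10 and 0.86 against -0.28 to 1.10, with overlap in both.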
